A study of Mus musculus with 18 samples.

Results

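Apolipoproteins are the protein parts of the lipoprotein particles that carry lipid in blood, and 10 of their genes were followed across mouse liver RNA-seq libraries. The genes were Apoa1, Apoa2, Apoa4, Apoa5, Apob, Apoc1, Apoc2, Apoc3, Apoe and Apom, chosen by name from a table of 58126 genes, and each name matched 1 gene. The 18 libraries formed 5 groups of whole tissue. DEN LKO tumour (3 libraries) was tumorous tissue, and DEN LKO nontumour (3 libraries) was nontumorous liver, both from mice with a liver-specific knockout of Ftcd (LKO) that had received diethylnitrosamine (DEN). DEN WT nontumour (6 libraries) was nontumorous liver of WT littermates given the same agent. The remaining groups were liver of untreated LKO mice (3 libraries) and of untreated WT mice (3 libraries). Ftcd encodes a liver enzyme of histidine breakdown and folate metabolism, and DEN is a carcinogen that hepatocytes activate. The DEN groups received 20 mg/kg by intraperitoneal injection at postnatal day 14 and their livers were collected 12 months after it, while untreated mice were 12 months old, and all mice ate regular chow. The sources used here give neither the promoter that drove the deletion nor the strain, and WT tumours were not analysed here.

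The liver makes most plasma apolipoproteins. Apob is the structural protein of very-low-density and low-density lipoproteins, and each particle keeps its Apob molecule until a receptor takes it up. Apoa1 and Apoa2 are the main proteins of high-density lipoprotein (HDL). The small exchangeable apolipoproteins move between particles and set how fast lipoprotein lipase removes triglyceride from them, and Apoe is the ligand through which remnant particles are bound and cleared. In mice, unlike in humans, the liver also edits Apob mRNA.

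The genes lay in 2 clusters and at 3 other places (mm10, GENCODE annotation, all protein coding). The chromosome 9 cluster ran over 43.3 kb, chr9:46228580-46271919. In order it held Apoa1 (ENSMUSG00000032083, chr9:46228580-46230466), Apoc3 (ENSMUSG00000032081, chr9:46232933-46235636), Apoa4 (ENSMUSG00000032080, chr9:46240696-46243459) and Apoa5 (ENSMUSG00000032079, chr9:46268633-46271919). Apoc3 was on the minus strand and its 3 neighbours were on the plus strand. The chromosome 7 cluster ran over 27.6 kb, chr7:19671579-19699188, all on the minus strand. It held Apoc2 (ENSMUSG00000002992, chr7:19671579-19677941), Apoc1 (ENSMUSG00000040564, chr7:19689481-19692660) and Apoe (ENSMUSG00000002985, chr7:19696109-19699188). Apoa2 (ENSMUSG00000005681) was at chr1:171225054-171226379 and Apob (ENSMUSG00000020609) at chr12:7977648-8016835, both on the plus strand, and Apom (ENSMUSG00000024391) was at chr17:35128997-35132050 on the minus strand. The annotation placed another gene over 3 of them, and whether counting used strand is not given in the sources used here. These were Gm44805 on the strand of Apoc2 (5.76 to 55.9 TPM), Gm10680 (0.0 to 10.6 TPM) and Gm47528 (0.0 to 0.37 TPM) opposite Apoa4, and Gm47544 opposite Apoa5 (0.0 to 257 TPM), and how reads in these overlaps were assigned is uncertain.

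Promoter sequence is shown for 4 genes that formed 2 of the 7 pairs with a Pearson r over 0.7, described further on: Apoa4 with Apoc2, and Apoa5 with Apoe. All 7 pairs joined different chromosomes, and the closest, Apoa5 with Apom (r = 0.874), is not shown. Apoa5 and Apoe also both fell with the share of mitochondrially encoded transcripts, as given further on. Each sequence is 300 bases from RefSeq (GRCm38.p6), 250 before and 50 after the listed start site, written 5′ to 3′ on the gene's strand. Capitals mark a searched motif. RefSeq's Apoa4 start lay 148 bases from the GENCODE start, and the other 3 starts were identical in both annotations.
Apoa4, chr9:46240594-46240893, plus strand: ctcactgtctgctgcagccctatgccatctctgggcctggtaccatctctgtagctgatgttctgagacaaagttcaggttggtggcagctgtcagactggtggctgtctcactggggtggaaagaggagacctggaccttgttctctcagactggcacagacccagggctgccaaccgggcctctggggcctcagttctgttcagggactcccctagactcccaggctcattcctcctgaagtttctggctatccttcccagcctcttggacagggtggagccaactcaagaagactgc
Apoc2, chr7:19677892-19678191, minus strand: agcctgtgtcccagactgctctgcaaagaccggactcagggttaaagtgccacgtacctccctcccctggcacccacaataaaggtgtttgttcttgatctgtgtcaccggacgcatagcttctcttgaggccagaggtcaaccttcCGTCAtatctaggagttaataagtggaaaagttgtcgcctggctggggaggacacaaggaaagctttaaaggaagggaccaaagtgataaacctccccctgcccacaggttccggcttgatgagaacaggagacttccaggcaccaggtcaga
Apoa5, chr9:46268383-46268682, plus strand: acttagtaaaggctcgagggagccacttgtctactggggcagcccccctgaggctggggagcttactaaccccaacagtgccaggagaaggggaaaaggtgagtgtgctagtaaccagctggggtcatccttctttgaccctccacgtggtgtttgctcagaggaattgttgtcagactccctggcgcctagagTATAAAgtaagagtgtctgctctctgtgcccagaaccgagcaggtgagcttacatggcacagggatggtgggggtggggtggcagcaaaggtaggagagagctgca
Apoe, chr7:19699139-19699438, minus strand: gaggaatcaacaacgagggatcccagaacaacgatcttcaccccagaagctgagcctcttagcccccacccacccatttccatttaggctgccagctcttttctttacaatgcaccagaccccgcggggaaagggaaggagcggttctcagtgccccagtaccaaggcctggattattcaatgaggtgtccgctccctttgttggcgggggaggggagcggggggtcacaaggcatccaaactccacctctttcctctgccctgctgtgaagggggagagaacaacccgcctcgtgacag

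Promoters of 8 of the 10 genes were in the table, and Apoc1 and Apoc3 are only named. Both strands were searched for the TATA box (TATAAA), the core of the cyclic AMP response element (TGACG), the CCAAT box (CCAAT) and a pair of nuclear receptor direct repeats (CAAAGTCCA, which HNF4 binds, and CAAAGGTCA). In the sequences above, Apoa5 held TATAAA from base -56 and Apoc2 held TGACG on the opposite strand from base -103, read as CGTCA in the capitals. Neither Apoa4 nor Apoe held any of the 5. Of the other promoters, Apob held TATAAA at -60 and Apoa2 held TATAAA at -212, TGACG at -23 and CCAAT on the opposite strand at -164. Among all 32817 listed promoters, 13.6% held TATAAA, 20.8% TGACG and 37.4% CCAAT, against 0.475% for CAAAGTCCA and 0.478% for CAAAGGTCA. The pairs thus shared no searched motif in these windows.

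Levels are given in TPM (transcripts per 1000000), a unit scaled for the length of each gene and the total of each library, so genes can be compared but no depth is kept. The targeted gene went against the label in 3 libraries. Ftcd was at 0.1 to 3.16 TPM in the 9 LKO libraries and at 61.2 to 106 TPM in 6 libraries labelled WT, but at 2.36, 2.5 and 1.77 TPM in the libraries labelled DEN WT nontumour 1, DEN WT nontumour 2 and untreated WT 3. Xist and Y-linked genes marked 11 libraries as XX and 7 as XY. All 9 libraries labelled WT were XX and all 3 untreated LKO libraries were XY, so genotype and sex cannot be told apart in untreated liver. Of each DEN LKO group, library 1 was XX and libraries 2 and 3 were XY. Transcripts of the mitochondrial genome took 4.24% to 38.8% of a library, with means of 19.4% in DEN LKO tumours, 24.6% in DEN LKO nontumour, 12.0% in DEN WT nontumour, 23.2% in untreated LKO and 12.5% in untreated WT. Of 10 hepatocyte markers, 9 were measured and none was at 0 in any group, with sums of 13467 to 52033, 23182 to 45950, 17786 to 94520, 13453 to 32640 and 35300 to 68287 TPM in the same order of groups. In whole tissue, fewer cells of a type and less RNA per cell cannot be told apart. The mitochondrial share was highest in the XX library of each DEN LKO group, at 31.4% (tumour) and 36.9% (nontumour). The XY libraries of these groups were at 10.5% to 19.2%. Within them, XX or XY, mitochondrial share and library number cannot be told apart. The 6 libraries labelled WT with high Ftcd were at 4.24% to 10.0%, below all 9 LKO libraries (10.5% to 36.9%). Those with low Ftcd were at 38.8%, 6.47% and 23.2%.

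Together the 10 genes took 5.75% to 18.1% of all TPM in a library. The share averaged 9.46% ± 2.73 in DEN LKO tumours, 9.93% ± 2.50 in DEN LKO nontumour, 12.8% ± 3.84 in DEN WT nontumour, 9.66% ± 3.43 in untreated LKO livers and 14.2% ± 3.40 in untreated WT livers (SD, n = 3, 3, 6, 3 and 3). Both DEN LKO groups lay wholly below untreated WT, and the other pairs of groups overlapped. The margin was narrow, the highest DEN LKO nontumour library being at 11.94% and the lowest untreated WT library at 11.96%. Leaving out mitochondrially encoded genes gave 11.6%, 13%, 14.5%, 12.4% and 16.3% in that order. DEN LKO tumours (9.21% to 13.3%) and DEN LKO nontumour (11.3% to 14.8%) then overlapped untreated WT (12.5% to 20.1%). All 10 genes were above 1 TPM in every library. Nearly all of the sum came from 5 genes, on average 31.5% Apoa2, 23.9% Apoc1, 21.4% Apoe, 11.1% Apoa1 and 9.77% Apoc3. Apoa2, Apoc1 and Apoe ranked 3, 5 and 6 among all genes by mean TPM. The remaining 5 were far lower, with average shares of 0.753% for Apoc2, 0.568% for Apoa4, 0.509% for Apoa5, 0.435% for Apob and 0.0719% for Apom. The share taken by Apoe was 17.6% in DEN LKO tumours, 14.6% in DEN LKO nontumour, 27.6% in DEN WT nontumour, 17.8% in untreated LKO and 23.0% in untreated WT. That of Apoa1 was 19.2%, 15.1%, 8.72%, 9.23% and 5.61% in the same order.

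**Figure D1:**
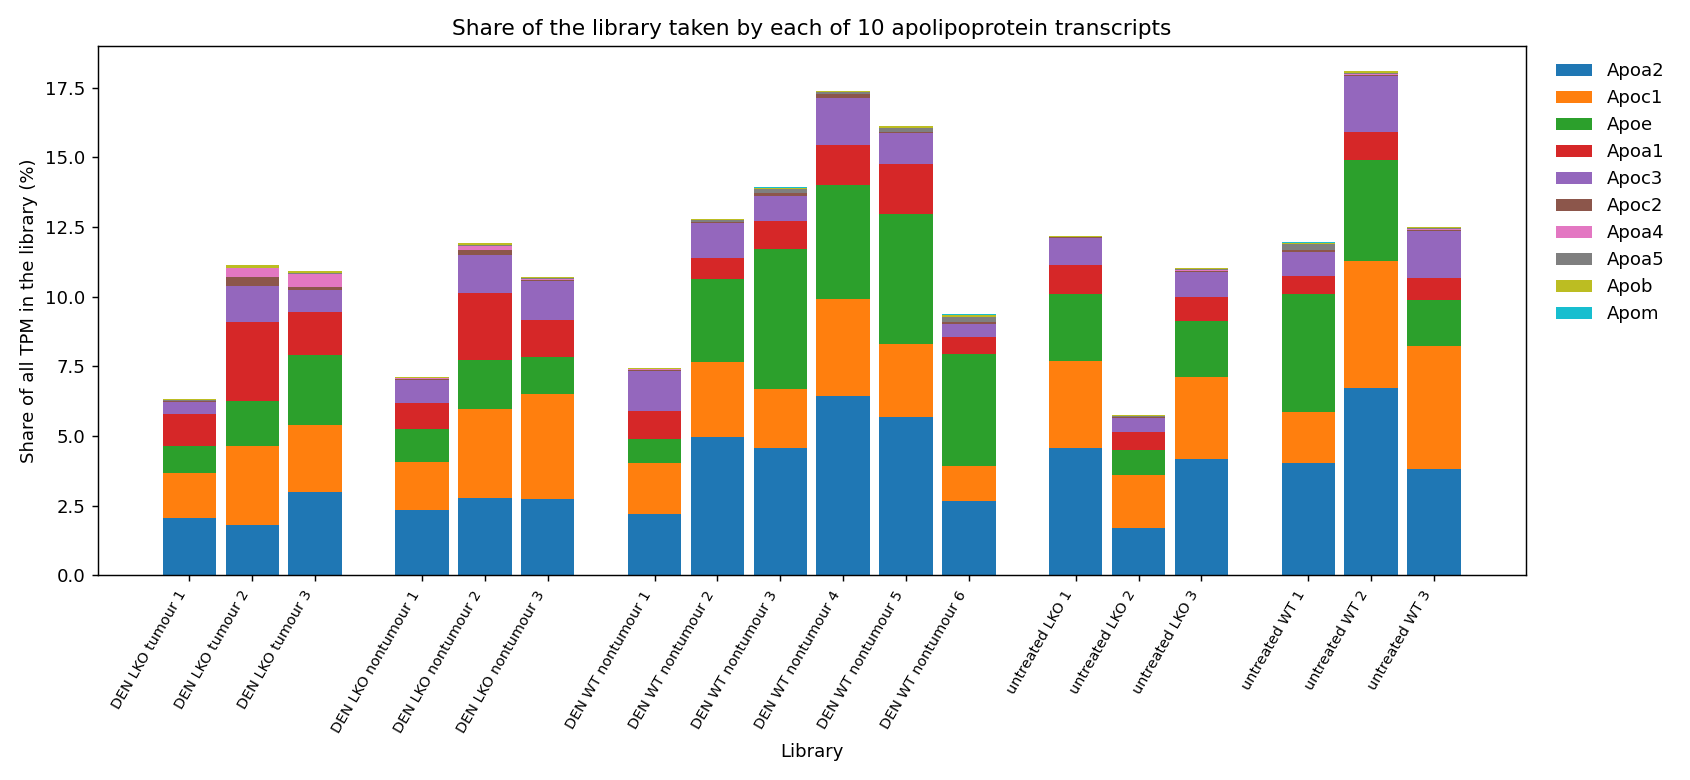
Share of all TPM in each library taken by each of the 10 apolipoprotein genes, as stacked bars in percent, with libraries ordered by group. The bars reach 5.75% to 18.1%, and Apoa2, Apoc1, Apoe, Apoa1 and Apoc3 fill most of each.

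The genes differed in how much they varied between libraries. The highest library exceeded the lowest 145-fold for Apoa4, 22.3-fold for Apom, 16.5-fold for Apoa5 and 10.7-fold for Apoc2, and between 3.65-fold (Apoc1) and 5.98-fold (Apoe) for the other 6. The SD of log2(TPM + 1) over the 18 libraries was 1.91 for Apoa4, 1.37 for Apom and 1.19 for Apoa5, down to 0.52 for Apoc1. With the 5 groups ordered by mean for each gene, all 40 pairs of neighbouring groups had overlapping ranges, so no order of groups below is separated step by step.

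**Figure D2:**
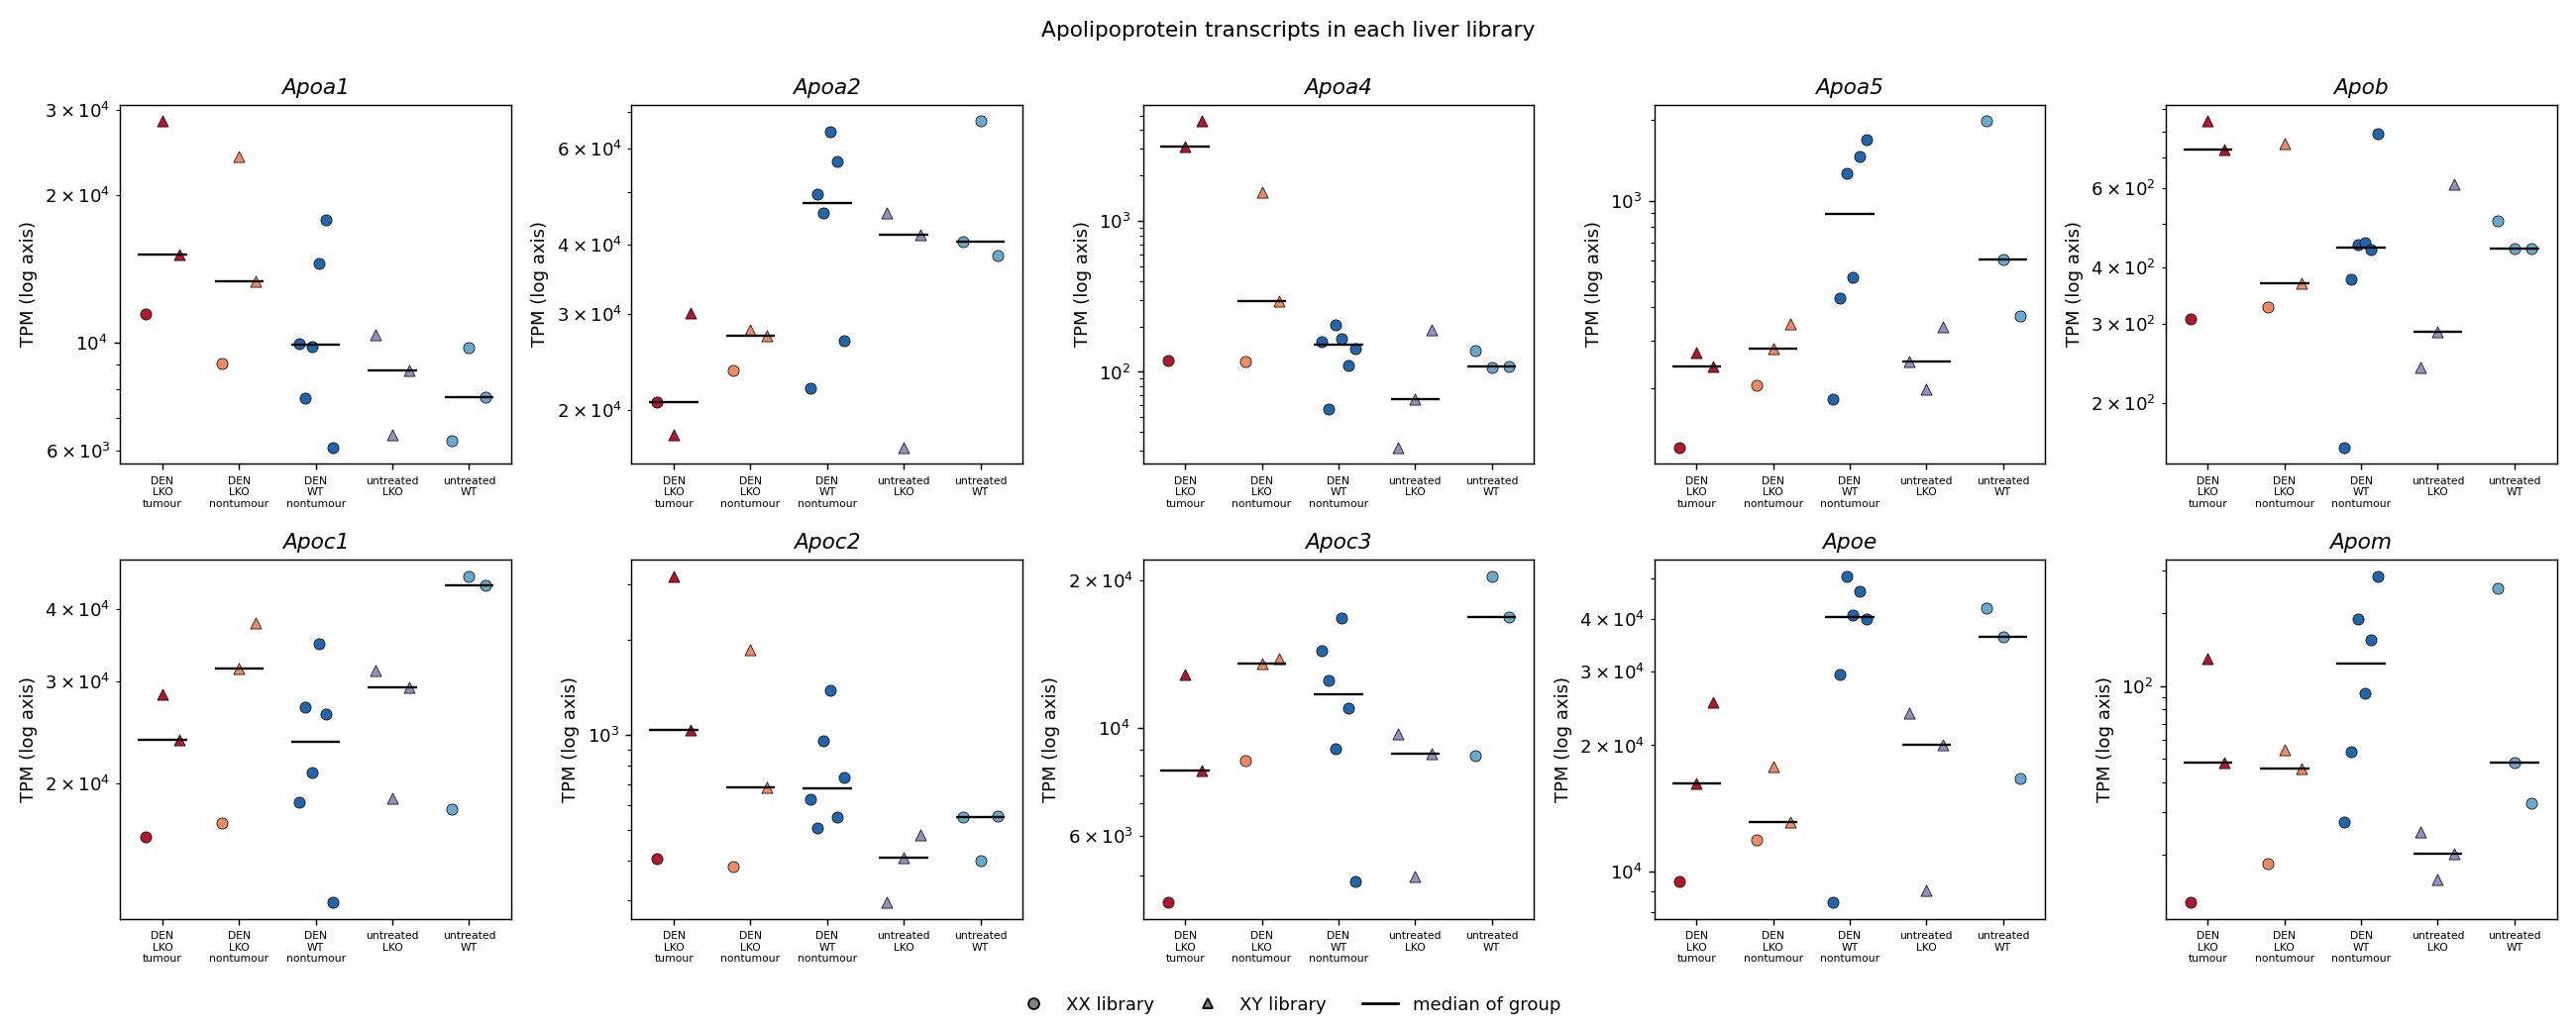
TPM of each apolipoprotein gene in each library on a log axis, with 1 panel per gene, groups along the x axis, circles for XX and triangles for XY libraries, and a bar at the group median. Apoa4 spreads most, with 118.8 TPM in the XX tumour library and 3104 and 4597 TPM in the XY tumour libraries.

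Among the HDL proteins, Apoa1, which activates the cholesterol-esterifying enzyme Lcat, stood at 11457, 28417 and 15153 TPM in DEN LKO tumours and at 9063, 23985 and 13329 TPM in DEN LKO nontumour livers. It lay between 6100 and 17791 TPM (median 9885) in DEN WT nontumour, at 10360, 6475 and 8749 TPM in untreated LKO and at 6295, 9750 and 7705 TPM in untreated WT. The second libraries of both DEN LKO groups stood above all others. The tumour range lay above those of both untreated groups and overlapped those of the other DEN groups. How many of all genes had such ranges was not counted.

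Apoa2, the second protein of HDL, was at 20655, 18005 and 30045 TPM in DEN LKO tumours and at 23663, 27970 and 27330 TPM in DEN LKO nontumour livers. DEN WT nontumour livers ranged between 21907 and 64464 TPM (median 47706), untreated LKO livers were at 45722, 17109 and 41826 TPM, and untreated WT livers were at 40517, 67367 and 38333 TPM. All 6 libraries of the DEN LKO groups lay in the lower part of the DEN WT range or below it.

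Apom, a lipocalin of HDL that carries sphingosine 1-phosphate, was the lowest of the 10, with 12.8, 129.9 and 48.4 TPM in DEN LKO tumours and 18.4, 54.7 and 45.5 TPM in DEN LKO nontumour livers. It ranged between 27.4 and 285 TPM (median 124) in DEN WT nontumour, and was at 25.0, 15.8 and 20.2 TPM in untreated LKO and 254, 48.1 and 32.8 TPM in untreated WT. The 3 untreated LKO livers were close together and all below the 3 untreated WT livers, of which the first was far above the others.

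Apob was at 307, 844 and 731 TPM in DEN LKO tumours and at 326, 754 and 369 TPM in DEN LKO nontumour livers. DEN WT nontumour livers held 160 to 792 TPM (median 443), untreated LKO livers 240, 287 and 611 TPM and untreated WT livers 507, 441 and 440 TPM. The untreated WT values lay within the range of every other group.

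Of the genes that act on lipoprotein lipase, Apoc2, its required activator, was at 406, 3178 and 1037 TPM in DEN LKO tumours and at 385, 1866 and 684 TPM in DEN LKO nontumour livers. In DEN WT nontumour it lay between 509 and 1383 TPM (median 680), against 296, 409 and 484 TPM in untreated LKO and 551, 403 and 554 TPM in untreated WT. Library 2 of each DEN LKO group was above every library of the other groups, and library 1 of each was below every DEN WT library.

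Apoa5, which raises lipolysis at the vessel wall, was at 120.5, 272 and 240.5 TPM in DEN LKO tumours and at 205, 281 and 347 TPM in DEN LKO nontumour livers. It ranged between 182 and 1692 TPM (median 892) in DEN WT nontumour, and was at 253, 199 and 339 TPM in untreated LKO and 1986, 606 and 371 TPM in untreated WT. In all 9 LKO libraries the gene stayed below the lowest untreated WT library, while the lowest DEN WT library lay within the LKO range. How large a share of all genes did so was not counted.

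Apoc3, an inhibitor of lipolysis and of remnant uptake, was at 4400, 12841 and 8166 TPM in DEN LKO tumours and at 8541, 13517 and 13791 TPM in DEN LKO nontumour livers. Its DEN WT nontumour range was 4844 to 16696 TPM (median 11713), and it was at 9697, 4956 and 8857 TPM in untreated LKO and at 8748, 20357 and 16825 TPM in untreated WT. The groups overlapped throughout.

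Apoc1, which hinders uptake of remnants by receptors, was at 16206, 28467 and 23815 TPM in DEN LKO tumours and at 17120, 31602 and 37906 TPM in DEN LKO nontumour livers. DEN WT nontumour livers ranged between 12494 and 34790 TPM (median 23643), untreated LKO livers were at 31359, 18909 and 29371 TPM and untreated WT livers at 18053, 45566 and 44021 TPM. It varied least of the 10.

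Apoa4, a lipid-binding protein made by the gut and, in mice, also by the liver, was at 118.8, 3104 and 4597 TPM in DEN LKO tumours and at 117.6, 1561 and 293 TPM in DEN LKO nontumour livers. It stayed between 56.8 and 205 TPM (median 151) in DEN WT nontumour, at 31.7, 66.3 and 191 TPM in untreated LKO and at 139, 108 and 108 TPM in untreated WT. The 4 XY libraries of the DEN LKO groups were above all 14 others, and the 2 XX libraries of those groups lay inside the DEN WT range. Each of these 2 was also library 1 of its group and had the group's highest mitochondrial share. The share of all genes that split in this way was not counted. Library 1 was the lowest of its group for every apolipoprotein in DEN LKO nontumour, and for all but Apoa2 in DEN LKO tumours. As a share of its neighbour Apoa1, Apoa4 came to 1.04%, 10.9% and 30.3% in DEN LKO tumours and to 1.3%, 6.51% and 2.20% in DEN LKO nontumour livers. The share was 0.624% to 2.34% in DEN WT nontumour, 0.306% to 2.18% in untreated LKO and 1.10% to 2.20% in untreated WT.

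Apoe, the receptor ligand, was at 9494, 16208 and 25372 TPM in DEN LKO tumours and at 11880, 17839 and 13134 TPM in DEN LKO nontumour livers. DEN WT nontumour livers ranged between 8453 and 50548 TPM (median 40423), untreated LKO livers were at 23828, 9043 and 20029 TPM and untreated WT livers at 42539, 36285 and 16629 TPM. Of the DEN WT libraries 5 were above every DEN LKO library, and the sixth, library 1, was below them all.

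Groups were compared with limma on log2(TPM + 1), a scale on which fold changes of low genes are understated, over 13872 genes with Benjamini-Hochberg adjustment. A gene was called at an adjusted p under 0.05. None of the 10 apolipoproteins was called by limma in any of 7 comparisons. At an unadjusted p under 0.05, limma gave 2 in DEN LKO nontumour against DEN WT nontumour, 3 in DEN LKO tumour against DEN WT nontumour, 1 in DEN LKO nontumour against untreated LKO and 0 in the other 4. Nothing in the labels says that replicates were separate animals, so p-values reflect the spread between these libraries. Each DEN LKO group held XX and XY libraries and so more than 1 animal. Each group labelled WT held libraries with low and with high Ftcd, which repeats of 1 liver would not give. Beyond that, and in untreated LKO, the spread may be technical. The comparisons share libraries, DEN WT nontumour and DEN LKO nontumour standing in several, so their values are given side by side and are not independent.

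Untreated LKO livers, all XY, were set against untreated WT livers, all XX, so the LKO label and sex changed together. Limma called 0 of 10 apolipoproteins, and 0.433% of all tested genes, while 0 members were among the 4.15% of genes with an unadjusted p under 0.05. Apom was at 20.3 ± 4.60 TPM in untreated LKO livers against 112 ± 123 TPM in untreated WT livers (SD, n = 3 each), a log2 fold change of -1.84 ± 0.90 (SE; 95% interval -3.74 to 0.06, limma adjusted p = 0.831). Apoa5 was at 263 ± 70.4 TPM against 988 ± 872 TPM, a log2 fold change of -1.57 ± 0.75 (-3.14 to 0.01, limma adjusted p = 0.831). These 2 genes did not overlap between the groups, both wholly lower in untreated LKO, which was also true of 8.97% of all tested genes. The largest untreated WT value of both was library 1. Without it the log2 fold changes were -0.96 for Apom and -0.88 for Apoa5, and without the untreated WT library with low Ftcd they were -2.41 and -2.09. Apoc3 had a log2 fold change of -0.94 ± 0.52, Apoe of -0.86 ± 0.62, Apoa4 of -0.66 ± 1.09, Apoa2 of -0.56 ± 0.48 and Apoa1 of 0.10 ± 0.49. In sign, 9 of 10 apolipoproteins were lower, with a median of -0.61 against -0.33 over all tested genes, of which only 23.4% were higher. Scaling libraries by the median ratio brought the all-gene median to 0.00, and then 6 apolipoproteins were lower and 4 higher. With the XX or XY term, which draws on the DEN LKO groups, all 10 were lower in sign, with a median of -1.74.

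Between the nontumour livers of DEN-treated mice, limma called 0 of 10 apolipoproteins, against 0.0577% of all tested genes. Apoe and Apoa5 were among the 13.1% of genes with an unadjusted p under 0.05. Apoe was at 14285 ± 3141 TPM in DEN LKO nontumour (n = 3) and 35995 ± 15261 TPM in DEN WT nontumour (SD, n = 6), a log2 fold change of -1.16 ± 0.54 (95% interval -2.29 to -0.03, limma adjusted p = 0.377). Apoa5 was at 278 ± 71.5 TPM against 927 ± 626 TPM, a log2 fold change of -1.39 ± 0.65 (-2.75 to -0.02, limma adjusted p = 0.38). Without the 3 libraries labelled WT that had low Ftcd, both passed limma, Apoe at -1.66 (adjusted p = 0.0315) and Apoa5 at -2.05 (adjusted p = 0.0331), among 8.35% of all genes. Apom, at 39.5 ± 18.9 TPM against 134 ± 95.7 TPM, had a log2 fold change of -1.49 ± 0.78 with all libraries (limma adjusted p = 0.399) and of -2.19 without those 3 (limma adjusted p = 0.0612). The DEN WT libraries then left had mitochondrial shares of 4.39% to 9.82%, wholly below DEN LKO nontumour (17.8% to 36.9%). In that fit the LKO label and the mitochondrial share therefore cannot be told apart. Apoa4 was at 657 ± 788 TPM in DEN LKO nontumour against 140 ± 51.1 TPM in DEN WT nontumour, a log2 fold change of 1.53 ± 0.95 (limma adjusted p = 0.451) that was -0.97 with a term for XX or XY libraries. No member was without overlap, as were 4.06% of all genes.

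DEN LKO tumours were set against DEN LKO nontumour livers, the comparison of tumour with nontumour tissue within 1 genotype. Limma called 0 of 10 apolipoproteins and 0.0% of all tested genes, and 0 members were among the 2.74% with an unadjusted p under 0.05. The ranges overlapped for all 10, while 3.83% of all genes did not overlap. Apoa4 had the largest log2 fold change, 1.66 ± 1.09 (95% interval -0.64 to 3.96, limma adjusted p = 0.943), at 2606 ± 2280 TPM in tumours and 657 ± 788 TPM in nontumour livers (SD, n = 3 each). The XX libraries of these groups were at 118.8 TPM (tumour) and 117.6 TPM (nontumour), and between the XY libraries alone the log2 fold change was 2.48. Apoc3 had a log2 fold change of -0.60 ± 0.52, and the other 8 lay between -0.45 (Apoa5) and 0.48 (Apoc2). The median of the 10 was 0.21, against 0.23 over all tested genes.

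DEN LKO tumours differed from DEN WT nontumour livers in both genotype and tissue. Limma called 0 of 10 apolipoproteins, against 0.497% of all tested genes, and 3 members were among the 10.5% with an unadjusted p under 0.05. Apoa4 averaged 2606 ± 2280 TPM in tumours and 140 ± 51.1 TPM in DEN WT nontumour (SD, n = 3 and 6), an 18.6-fold ratio of means and a log2 fold change of 3.19 ± 0.95 (95% interval 1.20 to 5.18, limma adjusted p = 0.156). Apoa5 was at 211 ± 79.8 TPM against 927 ± 626 TPM, a log2 fold change of -1.83 ± 0.65 (-3.20 to -0.47, limma adjusted p = 0.251). Apoa2 was at 22901 ± 6327 TPM against 44228 ± 16744 TPM, a log2 fold change of -0.88 ± 0.41 (limma adjusted p = 0.468). Apoe had a log2 fold change of -1.0 ± 0.54, Apom of -1.22 ± 0.78, Apoa1 of 0.73 ± 0.42, Apoc2 of 0.57 ± 0.57 and Apoc1 of 0.00 ± 0.41. None of the 10 was without overlap, as were 3.19% of all genes, and 5 were higher and 5 lower in sign. Of all tested genes 52.9% were higher.

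The call for Apoa4 and Apoa5 in that comparison turned on the processing. With libraries scaled by the median ratio limma gave Apoa4 3.20 (adjusted p = 0.0489) and Apoa5 -1.82 (adjusted p = 0.0314), where 2.21% of all genes were called. After quantile normalization Apoa4 was at 3.71 (limma adjusted p = 0.0473), with 1.69% of all genes called. Without the libraries labelled WT that had low Ftcd, Apoa5 was at -2.50 (limma adjusted p = 0.0193) and Apoa4 at 2.96 (limma adjusted p = 0.147), with 3.03% of all genes called. The DEN WT libraries left in that fit lay wholly below the tumours in mitochondrial share (4.39% to 9.82% against 10.5% to 31.4%). Without the XX tumour library Apoa4 was at 4.85 (limma adjusted p = 0.00202), with 3.5% of all genes called, and without the XX libraries of both DEN LKO groups it was at 4.85 (limma adjusted p = 0.000653), with 3.89% called. A term for XX or XY libraries gave Apoa4 0.69 (limma adjusted p = 0.658). No XY library labelled WT was among the 18, and 1 tumour library was XX, so sex and genotype cannot be told apart for the XY tumour libraries. The XX library of each DEN LKO group also had the group's highest mitochondrial share, so leaving it out changed both.

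**Figure D3:**
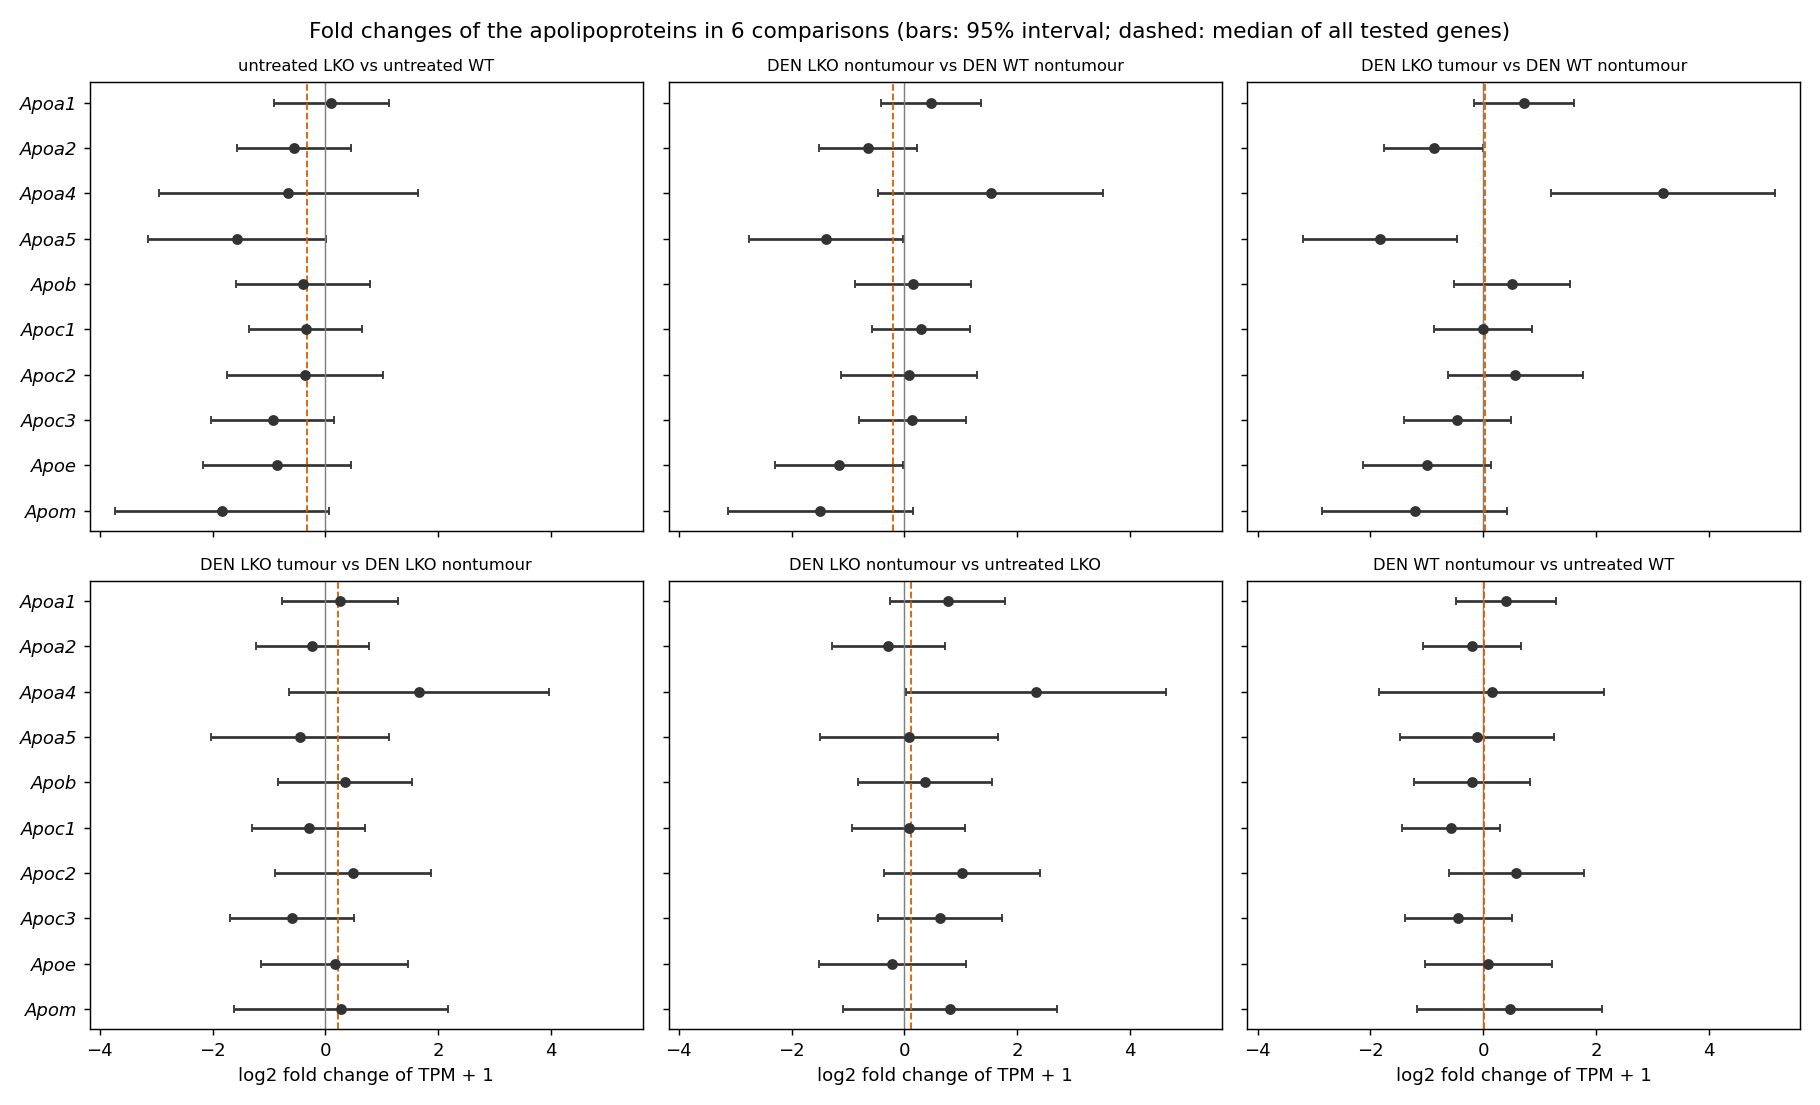
Log2 fold change of TPM + 1 for each apolipoprotein gene in 6 comparisons, as points with 95% intervals from limma, beside a dashed line at the median of all tested genes. The interval of Apoa4 in DEN LKO tumour against DEN WT nontumour runs between 1.20 and 5.18, and most intervals span 0.

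DEN itself was examined within each genotype. In DEN WT nontumour against untreated WT, limma called 0 of 10 apolipoproteins and 0.0% of all tested genes, and 0 members were among the 0.685% with an unadjusted p under 0.05. The ranges overlapped for all 10, while 0.67% of all genes did not overlap. The log2 fold changes ran between -0.57 (Apoc1) and 0.58 (Apoc2), the narrowest span of the 6 comparisons between groups. In DEN LKO nontumour against untreated LKO, limma called 0 of 10 apolipoproteins, against 0.0649% of all genes, and Apoa4 was among the 5.96% with an unadjusted p under 0.05. Apoa4 was at 657 ± 788 TPM against 96.2 ± 83.6 TPM (SD, n = 3 each), a log2 fold change of 2.34 ± 1.09 (0.04 to 4.64, limma adjusted p = 0.827). Between XY libraries only it was 3.17 (limma adjusted p = 0.0696), with the XX or XY term it was 3.59 (limma adjusted p = 0.0272), where 1.36% of all genes were called, and without DEN LKO nontumour library 2 it was 1.32. Apoc2 followed with 978 ± 783 TPM against 396 ± 94.4 TPM, a log2 fold change of 1.02 ± 0.66 (limma adjusted p = 1.0). The groups overlapped for all 10 genes, while 12.3% of all genes did not overlap. The LKO effect with DEN minus that without DEN was called for 0 of 10 apolipoproteins and 0.0% of all genes, with 0 members among the 2.39% at an unadjusted p under 0.05, and was largest for Apoa4 (2.19 ± 1.45) and Apoc3 (1.08 ± 0.69).

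The share of mitochondrially encoded transcripts moved with some apolipoproteins and not with others. Over the 18 libraries, 10 relations were computed between log2(TPM + 1) of a member and the log2 share, each with a 2-sided permutation test and Benjamini-Hochberg adjustment over the 10. Apoe had a Pearson r of -0.931 (adjusted permutation p = 5e-05) and a Spearman rho of -0.915 (adjusted permutation p = 5e-05), and r was -0.919 without the 2 farthest libraries. Apoa5 had r = -0.888 (adjusted permutation p = 5e-05), rho = -0.876 (adjusted permutation p = 5e-05) and r = -0.835 without the 2. Apom had r = -0.852 (adjusted permutation p = 6.67e-05), rho = -0.853 (adjusted permutation p = 0.0001) and r = -0.789 without them. Apoa2 had r = -0.617 (adjusted permutation p = 0.0195), rho = -0.624 (adjusted permutation p = 0.0177) and r = -0.626 without them. The unadjusted p of 1e-05 for Apoe and Apoa5 is the smallest these permutations can give. Apob was at r = -0.469 (adjusted permutation p = 0.0998) and rho = -0.534 (adjusted permutation p = 0.0493), and Apoa1, Apoa4, Apoc1, Apoc2 and Apoc3 lay between -0.185 and 0.082.

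Shares of 1 total move against each other by construction, so the relations were computed in other forms. With mitochondrially encoded genes left out of the total, r was -0.896 for Apoe, -0.834 for Apoa5 and -0.802 for Apom, and -0.37 for Apoa2. With median-ratio scaling r was -0.66 for Apoe, -0.735 for Apoa5, -0.774 for Apom and 0.039 for Apoa2, while Apoa1 and Apoc1 had r = 0.613 and 0.551. For deviations from group means r was -0.902 for Apoe, -0.876 for Apoa5, -0.792 for Apom and -0.66 for Apob. Within the 6 DEN WT nontumour libraries Apoe had r = -0.945 (exact permutation p = 0.0389, adjusted p = 0.153), and -0.755 without the 2 farthest. In the same 6, Apoa5 at -0.842 and Apom at -0.787 came to -0.28 and -0.267 without the 2 farthest, so there the relation rests on those libraries. The other groups held 3 libraries each, too few for a value within them. With the share as a covariate, the log2 fold changes between DEN LKO nontumour and DEN WT nontumour were -0.08 for Apoe, -0.09 for Apoa5 and -0.03 for Apom. Between untreated LKO and untreated WT they were 0.03 for Apoe, -0.50 for Apoa5 and -0.64 for Apom. For Apoa4 in DEN LKO tumour against DEN WT nontumour the covariate gave 3.73 (limma adjusted p = 0.0688). What part the mitochondrial share has in the group differences was not tested beyond these values.

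**Figure D4:**
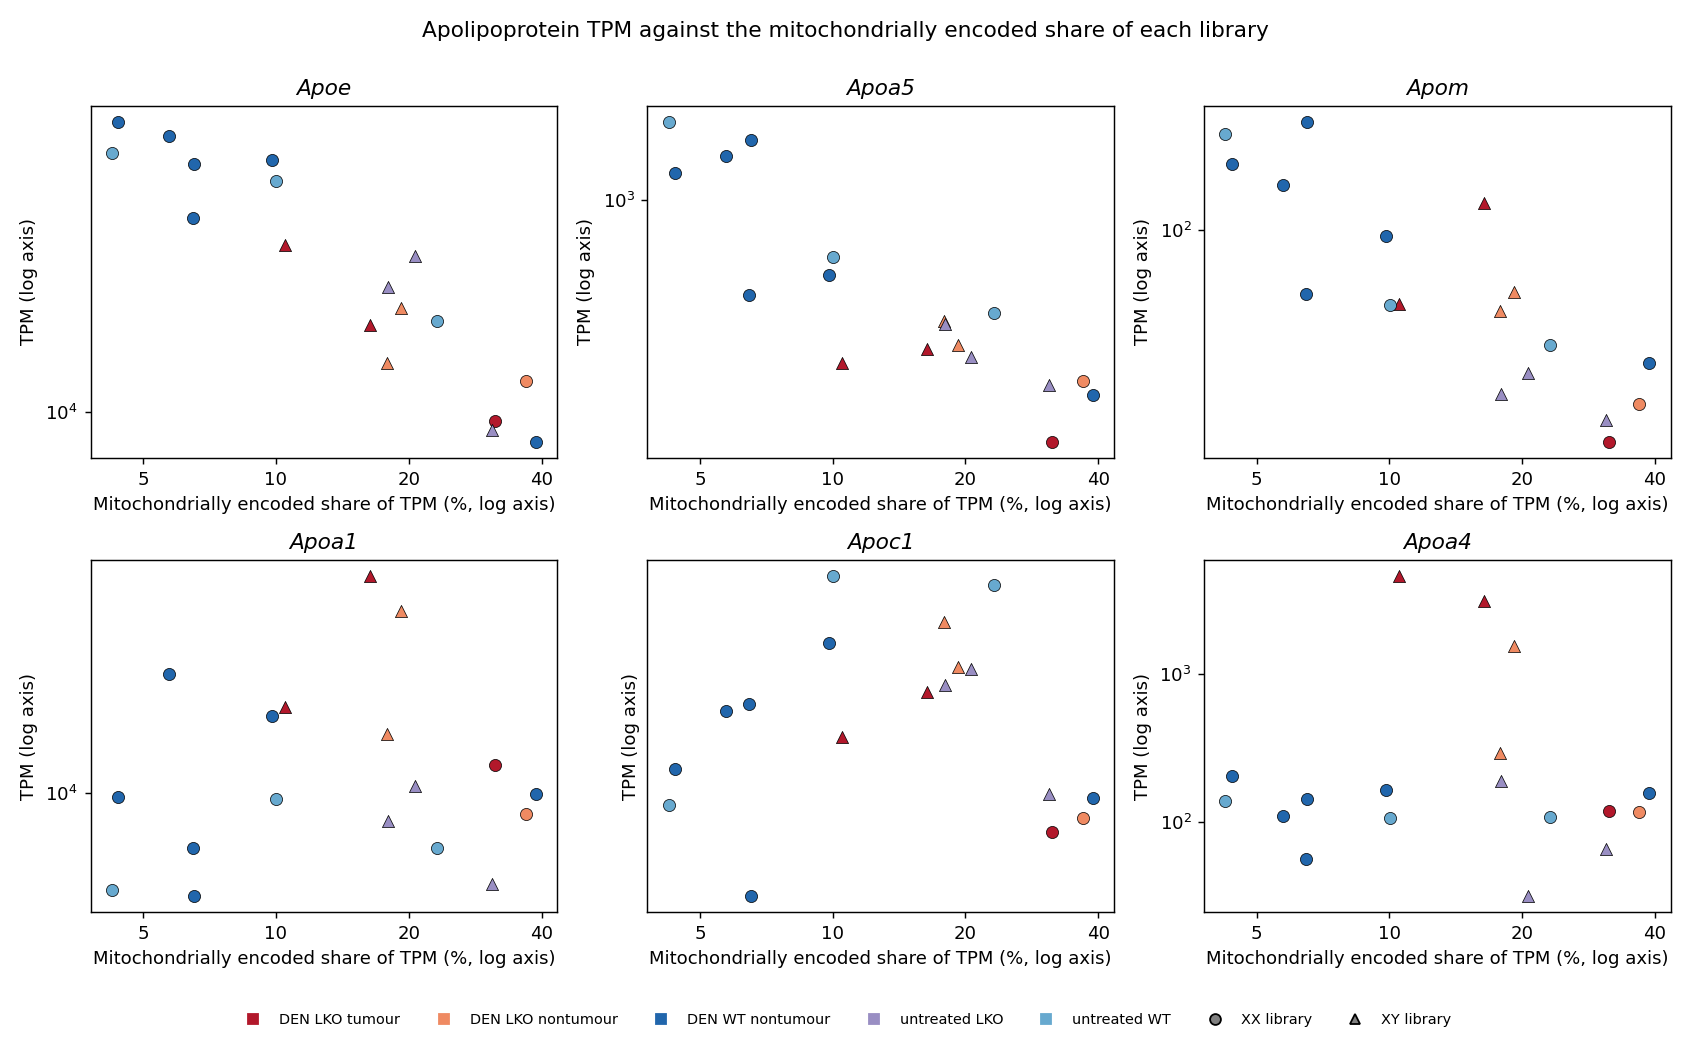
TPM of 6 apolipoprotein genes against the percent of TPM from mitochondrially encoded genes, both on log axes, with 1 point per library coloured by group. Apoe, Apoa5 and Apom run downwards (r = -0.931, -0.888 and -0.852), while Apoa1, Apoc1 and Apoa4 do not (r = 0.082, 0.018 and -0.022).

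Of the 45 pairs among the 10 genes, 35 had a Pearson r above 0 over the 18 libraries and 7 were over 0.7, all points sharing the library total. The 7 were Apoa5 with Apom (0.874), Apoa5 with Apoe (0.86), Apoa4 with Apoc2 (0.812), Apoc1 with Apoc3 (0.811), Apoa2 with Apoe (0.783), Apoe with Apom (0.782) and Apoa1 with Apoc2 (0.712). All 7 pairs joined genes on different chromosomes. Within the chromosome 9 cluster, Apoa1 with Apoa4 came to 0.697 and Apoa1 with Apoc3 to 0.361, but Apoa5 was at -0.236 with Apoa1 and -0.152 with Apoa4. Within the chromosome 7 cluster, Apoe was at 0.124 with Apoc1 and 0.134 with Apoc2. Apoa4 and Apoc2, whose promoters are printed above, were both high in library 2 of each DEN LKO group, and kept r = 0.816 for deviations from group means.

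Among the other tested genes, those whose log2(TPM + 1) followed a member most closely over the 18 libraries were named by Pearson r alone. For Apoa4 they were Arhgap22 (0.952), Scd2 (0.941), a stearoyl-CoA desaturase that makes monounsaturated fatty acids, and Rragd (0.934). Scd2 was at 0.82, 38.3 and 67.1 TPM in DEN LKO tumours, at 2.27, 11.0 and 5.53 TPM in DEN LKO nontumour livers and at no more than 3.17 TPM in the other groups. Apoe was followed by Asgr1 (0.977), a hepatocyte receptor for asialoglycoproteins, Apoa2 by Ttr (0.934), the thyroxine carrier, and Apoa5 by the chemokine Cxcl12 (0.959). Apom was followed by Sqor (0.96), a mitochondrial sulfide oxidase, Apob by Birc6 (0.957), Apoc2 by Klrb1b (0.952), Apoc1 by Prdx2 (0.92), Apoa1 by Bex1 (0.869) and Apoc3 by Atp5h (0.824), a subunit of ATP synthase. Bex1, Klrb1b, Arhgap22 and Rragd did not exceed 4.8, 5.96, 9.51 and 8.02 TPM in any library, so those likenesses rest on low values.

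Partners of the apolipoproteins were taken as 6 lists with 75 genes, of which 71 were tested, and over the 7 comparisons limma made 1 call among them. That call was Lpl, lipoprotein lipase, the enzyme that Apoc2 activates and Apoc3 inhibits. Lpl was at 8.98, 53.7 and 43.3 TPM in DEN LKO tumours and at 4.90, 23.2 and 20.6 TPM in DEN LKO nontumour livers. It lay between 2.0 and 5.51 TPM (median 3.33) in DEN WT nontumour, 0.65 and 2.07 TPM in untreated LKO and 1.18 and 1.94 TPM in untreated WT. Every tumour library was above every DEN WT library, while 3.19% of all tested genes did not overlap between these groups in either direction. Lpl rose in DEN LKO tumours against DEN WT nontumour by a log2 fold change of 2.73 ± 0.52 (limma adjusted p = 0.0219), where 0.497% of all tested genes were called. It kept the call in 14 of 22 alternatives, with log2 fold changes between 1.32 and 3.50. It lost the call with no filter on low genes (adjusted p = 0.057), with the compared groups alone in the model (adjusted p = 0.15), without tumour library 2 (adjusted p = 0.164), without tumour library 3 (adjusted p = 0.109), without DEN WT library 3 (adjusted p = 0.0552), without DEN WT library 5 (adjusted p = 0.0544), with the replicate number as a block (adjusted p = 0.473) and with the XX or XY term (adjusted p = 0.535), all by limma. Against DEN WT nontumour, Lpl in DEN LKO nontumour had a log2 fold change of 1.74 ± 0.52 (limma adjusted p = 0.283), and against untreated LKO it was 2.61 ± 0.60 (limma adjusted p = 0.195). As with every apolipoprotein but Apoa2, the lowest library of each DEN LKO group was the XX library, which also had the group's highest mitochondrial share.

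No gene of the other 5 lists was called by limma in any comparison. In lipoprotein assembly, where Mttp loads lipid onto Apob, 11 of 12 genes were lower in sign in DEN LKO tumours than in DEN WT nontumour, with a median log2 fold change of -0.48 against 0.04 over all genes, and 10 of 12 under each of the 3 other scalings. In the first fit, 11 of 12 were also lower in DEN LKO nontumour than in DEN WT nontumour, and 10 of 12 in untreated LKO than in untreated WT. Against DEN LKO nontumour, 10 of 12 were higher in DEN LKO tumours (median 0.40 against 0.23 over all genes). Tm6sf2, which helps to lipidate very-low-density lipoprotein, was at 10.4 ± 6.73 TPM in untreated LKO and 41.4 ± 9.58 TPM in untreated WT, a log2 fold change of -2.03 ± 0.51 (limma adjusted p = 0.13). Of the receptors and uptake genes 9 of 10 were lower in sign in DEN LKO tumours than in DEN WT nontumour, though 7 of 10 without mitochondrially encoded genes. In the first fit, 9 of 10 were also lower in DEN LKO nontumour than in DEN WT nontumour, and 10 of 10 in untreated LKO than in untreated WT. Against DEN LKO nontumour, 9 of 10 were higher in DEN LKO tumours. Lcat, the enzyme that Apoa1 activates, was at 101 ± 61.8 TPM in DEN LKO tumours and 368 ± 172 TPM in DEN WT nontumour, a log2 fold change of -1.89 ± 0.53 (limma adjusted p = 0.134). Of 19 tested regulators, 14 were lower in sign in that comparison, 13 without mitochondrially encoded genes, and Hnf4a, a nuclear receptor that drives apolipoprotein genes, was at 75.5 ± 28.0 TPM against 90.1 ± 54.7 TPM. Efflux transporters were 3 higher and 3 lower of 6 in sign, and 2 and 4 after quantile normalization. Of the other apolipoproteins and apolipoprotein-like proteins 12 of 14 were lower, with Saa1, an acute-phase apolipoprotein, at 6.47 to 40.1 TPM in tumours and 4.51 to 2888 TPM in DEN WT nontumour. In DEN LKO nontumour against DEN WT nontumour, 11 of these 14 and 18 of the 19 regulators were lower in sign. Between DEN LKO tumours and DEN LKO nontumour, 13 of 19 regulators were higher in tumours, near the share of all tested genes (69.0%).

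Cell type markers were read beside these values, and their part in them was not tested. All 9 hepatocyte markers were lower in sign in DEN LKO tumours and in DEN LKO nontumour livers than in DEN WT nontumour, and in untreated LKO than in untreated WT, and all 9 stayed lower in sign under median-ratio scaling, quantile normalization and without mitochondrially encoded genes. Of these, 1 passed limma, in DEN LKO tumours against DEN WT nontumour, where 0.497% of all tested genes were called. It was Hpd, an enzyme of tyrosine breakdown, at 629 ± 452 TPM in DEN LKO tumours against 2420 ± 432 TPM in DEN WT nontumour (log2 fold change -2.24 ± 0.48, limma adjusted p = 0.0452). It kept the call in 9 of 22 alternatives, with log2 fold changes between -2.80 and -1.56. Leaving out 1 library ended it for tumour library 2 (limma adjusted p = 0.278), tumour library 3 (0.101) and DEN WT libraries 2, 3, 4, 5 and 6 (0.0518 to 0.106), as did no filter (0.101), median-ratio scaling (0.0669), leaving out mitochondrially encoded genes (0.0518), the compared groups alone (0.223), the XX or XY term (0.535) and the replicate block (0.473). Kupffer cell and macrophage markers, cells that also make Apoe, summed to 178 to 1296 TPM in DEN LKO tumours, 200 to 558 TPM in DEN LKO nontumour, 201 to 788 TPM in DEN WT nontumour, 65.3 to 124 TPM in untreated LKO and 126 to 376 TPM in untreated WT. None of these 12 was called. All 12 were lower in sign in untreated LKO than in untreated WT (median log2 fold change -1.09 against -0.33 over all genes, of which 23.4% were higher). All 12 were higher in DEN WT nontumour than in untreated WT (0.77), as were 52.4% of all tested genes. In DEN LKO nontumour against untreated LKO all 12 were also higher (1.80), as were 61.6% of all tested genes. Against DEN WT nontumour, 10 of 12 were lower in DEN LKO nontumour and 6 of 12 in DEN LKO tumours. Enterocytes are a major source of Apoa4, and of their 7 markers Alpi, Sis, Cdx1 and Cdx2 were at 0 in all 18 libraries. Their sum, mostly Fabp2, was 33.7, 51.7 and 205 TPM in DEN LKO tumours, 35.4, 45.2 and 9.18 TPM in DEN LKO nontumour, and 12.0 to 107 TPM in the other groups. Vil1 was at 39.2 TPM in tumour library 3, the library highest in Apoa4, and at no more than 2.01 TPM elsewhere. Among red cell markers Alas2, the erythroid enzyme of haem synthesis, was called in untreated LKO against untreated WT, as were 0.433% of all tested genes. It was at 128 ± 34.8 TPM against 12.2 ± 1.03 TPM (log2 fold change 3.26 ± 0.59, limma adjusted p = 0.0137). It kept the call in 10 of 18 alternatives. Leaving out any 1 of the 6 libraries other than untreated LKO 2 ended it (limma adjusted p = 0.0548 to 0.0953), as did leaving out the low-Ftcd libraries labelled WT (0.0621), the XX or XY term (0.167) and the replicate block (0.163). None of the stellate, endothelial, cholangiocyte, T or B cell markers was called.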

How the data were processed

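RNA-seq of 18 mouse liver libraries in 5 groups was read from 1 table of TPM that the authors deposited. The submitters' processing notes name fastp, HISAT, RSEM and mm10 without roles, and versions are not stated there. Per the labels' protocols, RNA came from a TRIzol extraction and went into a TruSeq preparation. Each library sums to 1000000 TPM, so depth, and the precision of a single value, are unknown. Group means that the authors added equalled the means of the libraries to 3.3e-05 TPM and were left aside, and 0 columns belonged to other samples.

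Values were taken as log2(TPM + 1). The filter kept 13872 genes reaching 1 TPM in 3 or more libraries, all 10 apolipoproteins among them. They were fitted in limma 3.58.1 (R 4.3.3) as 5 group means over all 18 libraries, leaving 13 residual degrees of freedom, with the variance trend on. Tests were 2-sided, and the fit was tested on simulated data. Correlations used 100000 permutations, or all pairings within 6 libraries, in scipy 1.17.1 (Python 3.11.15, with numpy 2.4.6 and pandas 2.3.3), and plots used matplotlib 3.10.9. XX or XY was read from Xist and Y-linked genes. Coordinates came from GENCODE M21 and promoters from RefSeq.

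Named were all 10 members in each comparison, the list genes that were called plus at most 2 of the largest per list and comparison, and for each member the genes closest by Pearson r. Hnf4a, Mttp, Vil1 and Fabp2 fall outside this rule and were chosen after their values were seen. Members and lists were chosen with earlier results of these data known. The alternatives were another pseudocount, other filters and scalings, covariates, the compared groups alone, a replicate block, and left-out libraries. Leaving out the 2 XX LKO libraries was chosen after seeing the data.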

Additional observations from a re-analysis of the deposited data

Results flagged for a closer look

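Among 15 sets of 6 DEN WT nontumour values that were examined for a single distant library, 1 set had one. Mitochondrially encoded transcripts took 38.8% of TPM in DEN WT nontumour 1, against 4.39% to 9.82% in the other 5, a gap above the 95% critical value of 0.625 of the range. Chance gives such a gap in about 1 set in 20. The same library had 2.36 TPM of Ftcd, low for its label, and held the lowest Apoe, Apoa5, Apoa2, Apob and Apom of its group.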

How the results depend on the processing

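None of the 10 apolipoproteins passed limma in any comparison in the first fit, and over 18 to 27 other settings per comparison this count differed in 3 comparisons. In DEN LKO nontumour against DEN WT nontumour it was 2 without the 3 low-Ftcd libraries labelled WT. In DEN LKO tumour against DEN WT nontumour it was 2 with median-ratio scaling, 1 with quantile normalization, 1 without the low-Ftcd libraries, 1 without the 2 XX libraries labelled LKO, and 0 to 1 when 1 library was left out. It was 1 in DEN LKO nontumour against untreated LKO with the XX or XY term. The cause of these differences was not tested. The count of apolipoproteins correlated with the mitochondrial share was 4 at first and 3 to 5 in the other forms over 15 or 18 libraries, not always the same genes: median-ratio scaling lost Apoa2 and added Apoa1 and Apoc1 with r above 0, and deviations from group means lost Apoa2 and added Apob. Within the 6 DEN WT nontumour libraries it was 0, the lowest adjusted exact permutation p being 0.153. The number of all genes called ranged between 0 and 1159 for DEN LKO nontumour against DEN WT nontumour (8 in the first fit), between 0 and 540 for DEN LKO tumour against DEN WT nontumour (69), between 10 and 96 for untreated LKO against untreated WT (60), between 2 and 189 for DEN LKO nontumour against untreated LKO (9), between 0 and 11 for DEN LKO tumour against DEN LKO nontumour (0) and between 0 and 4 for the difference between the LKO effects (0).

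Groups share replicate numbers, and the labels do not say what a number stands for. Same-numbered libraries had deviations that correlated between -0.631 and 0.608, with no comparison in which all 3 exceeded 0.1, and at most 2 of 3 pairs correlated best with their own number. With the replicate number as a block, 0 apolipoproteins were called in each comparison.

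Of 1460 other fold changes of the 10 genes, 96 had another sign than in the first fit. Each belonged to a member that did not pass limma, and 0 to one with an unadjusted p under 0.05. In untreated LKO against untreated WT the log2 fold changes with another sign were Apob 0.11, Apoc1 0.16 and Apoc2 0.16 with median-ratio scaling, Apoa1 -0.34, Apob 0.024 and Apoc2 0.049 with quantile normalization, Apoa1 -0.81 with the XX or XY term, and Apob 0.15 and Apoe 0.025 with the mitochondrial share as covariate. The XX or XY term in DEN LKO nontumour against DEN WT nontumour gave Apoa1 -0.14, Apoa4 -0.97, Apob -0.52, Apoc1 -0.27, Apoc2 -1.15 and Apoc3 -0.49. Quantile normalization there gave Apoc1 -0.084 and Apoc3 -0.20, leaving out the low-Ftcd libraries gave Apob -0.20 and Apoc2 -0.12, and Apoc3 was -0.002 with the mitochondrial covariate and -0.009 with the block. In DEN LKO tumour against DEN LKO nontumour, median-ratio scaling gave Apoa1 -0.036, Apoe -0.13 and Apom -0.014, the mitochondrial covariate gave Apoe -0.14 and Apom -0.14, and quantile normalization gave Apoa2 0.15. In DEN LKO tumour against DEN WT nontumour, the XX or XY term gave Apob -0.17, Apoc1 -0.57 and Apoc2 -0.67, and quantile normalization gave Apoc1 -0.41.

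In DEN WT nontumour against untreated WT, Apoa5 was 0.005 with quantile normalization, Apoa5 0.043 and Apob 0.12 without the low-Ftcd libraries, Apoe -0.066 with the mitochondrial covariate, and Apoe -0.34 and Apom -0.18 with the block. In DEN LKO nontumour against untreated LKO, median-ratio scaling gave Apoa5 -0.15 and Apoc1 -0.15, quantile normalization gave Apoa5 -0.016 and the XX or XY term gave Apoe 0.033. For the LKO effect with DEN minus that without DEN, the block gave Apoa2 0.072 and Apoe 0.13, median-ratio scaling gave Apoa5 -0.025 and quantile normalization gave Apoa5 -0.021.

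Leaving out 1 library gave 51 of the 96. The log2 ranges were -0.05 to 0.29 for Apoa1 in untreated LKO against untreated WT. In DEN LKO nontumour against DEN WT nontumour they were -0.21 to 0.39 for Apob, -0.54 to 0.60 for Apoc2 and -0.09 to 0.36 for Apoc3. In DEN LKO tumour against DEN LKO nontumour they were -0.11 to 0.63 for Apoa1, -0.28 to 1.20 for Apoc2, -0.18 to 0.53 for Apoe and -0.50 to 1.12 for Apom. In DEN LKO tumour against DEN WT nontumour they were -0.18 to 0.23 for Apoc1 and -0.20 to 1.28 for Apoc2. In DEN WT nontumour against untreated WT they were -0.34 to 0.064 for Apoa2, -0.62 to 0.58 for Apoa5, -0.39 to 0.068 for Apob, -0.32 to 0.47 for Apoe and -0.11 to 1.35 for Apom. Against untreated LKO, in DEN LKO nontumour, they were -0.11 to 0.28 for Apoa5, -0.005 to 0.77 for Apob, -0.16 to 0.42 for Apoc1 and -0.64 to 0.064 for Apoe. For the difference between the LKO effects they were -0.008 to 0.69 for Apoa1, -0.54 to 0.17 for Apoa2, -0.51 to 0.70 for Apoa5, -0.18 to 0.96 for Apoc2, -0.73 to 0.11 for Apoe and -0.53 to 0.92 for Apom. Depth is unknown, so what it limits cannot be stated.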
